A study of Mus musculus with 6 samples.

Results

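The carbonic anhydrases are zinc enzymes that interconvert carbon dioxide and bicarbonate, and 10 of the mouse genes (Car2, Car3, Car4, Car7, Car8, Car9, Car10, Car11, Car12 and Car14) are described here in heads of embryos that lacked Arid3b and in wild type heads. They were found by gene symbol among the non-control probes of the array, where 12 probes carried them, 1 each except for Car4 and Car8 with 2, out of 20021 genes with a symbol. Heads were taken at embryonic day 9.5, with the first branchial arch, and RNA was measured on one-colour Agilent arrays. The wild type group and the Arid3b-null group each had 3 arrays, each of RNA pooled from 4 embryos, so that every value is a mean over whole heads of several embryos. Arid3b encodes a member of the ARID family, proteins that bind AT-rich DNA, and the strain and the construction of the null allele are not given in the sources used here. Nothing in the labels says that the pools came from separate litters, and p-values therefore measure the spread between these pools only.

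Carbonic anhydrases set the pH inside and around cells, and paralogues differ in where they act. Car9 and Car12 are single-pass membrane enzymes with the active site outside the cell, and both are known to be induced by low oxygen, Car9 as a standard target of hypoxia-inducible factor (HIF). Car14 is a further transmembrane enzyme and Car4 is held to the outer membrane by a lipid anchor, whereas Car2, Car3 and Car7 are cytosolic. Car8, Car10 and Car11 have lost histidines that hold the zinc and have no carbonic anhydrase activity: Car8 is a cytosolic partner of the inositol trisphosphate (IP3) receptor Itpr1, and Car10 and Car11 are secreted proteins that bind neurexins.

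The HIF complex binds DNA at a short core whose letters are ACGTG or GCGTG, and the RefSeq promoter table (build GRCm38.p6) was searched for both, on both strands, in the 250 bases before each annotated start. ACGTG was present in 16.6% of all 32851 windows of this length, GCGTG in 28.2% and either of them in 38.6%. The 11 windows found belonged to 7 of the 10 genes, with none for Car2, Car3 and Car8. ACGTG occurred in 3 windows, those of Car9, Car14 and 1 of the 2 starts of Car10, at 18, 7 and 145 bases before the start. GCGTG occurred in 3 windows of 2 genes, Car7 and 1 of the 2 starts of Car11, where it lay 218 bases before the start. Neither was present in the windows of Car12 and Car4. The whole window of Car9 is shown because Car9 had the largest difference of the family, at chr4:43506776-43507025 on the plus strand, with capitals for CACGT, which is ACGTG read on the other strand.
Car9: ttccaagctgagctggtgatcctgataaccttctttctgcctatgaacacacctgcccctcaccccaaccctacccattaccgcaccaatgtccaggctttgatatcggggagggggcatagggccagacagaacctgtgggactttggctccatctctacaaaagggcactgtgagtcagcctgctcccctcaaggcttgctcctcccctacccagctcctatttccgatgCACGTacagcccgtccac

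The last 30 bases before the start set Car9 beside the 2 other transmembrane enzymes, one that holds the same letters and one that does not: Car9 at chr4:43506996-43507025 (plus strand), Car14 at chr3:95904686-95904715 (minus strand) and Car12 at chr9:66713656-66713685 (plus strand), in the same build and with the same use of capitals.
Car9: ctatttccgatgCACGTacagcccgtccac
Car14: agcccaggcaccacccccctcctCACGTac
Car12: ctcctgcctgatgacatcatgtttagggtt
Car9 and Car14 thus shared the letters within 18 bases of the start, and Car12 had neither core in its 250 bases. A match is a description of the letters and not a binding site.

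The arrays were alike in their spot flags, but their weights in a fit with array weights ran from 0.192 for wild type replicate 3 to 5.44 for wild type replicate 2. Of 43020 non-control spots per array, 67.9% to 70.3% gave signal well above background and none reached saturation, and 84 to 156 spots per array were outliers and left out. Across genes the arrays correlated at 0.977 to 0.986 within wild type, at 0.992 to 0.993 within the null group and at 0.965 to 0.975 between groups. Every slide carried 1 wild type array and the null array with the same number. Wild type always took position 1 and null position 2, and for this reason slide position cannot be told apart from genotype. All 13 head identity genes examined were well above background on all 6 arrays, with 2 called higher (Alx4 at 0.76, adjusted p = 0.0141, and Otx2 at 0.57, 0.0401) and 3 lower by limma (Barx1 at -2.34, 0.00204, Dlx1 at -1.50, 0.00330, and Dlx2 at -1.13, 0.00542). Over all genes tested, 12.3% were called higher and 11.2% lower. Alx4 gave 0.27 under normexp, and the calls of Alx4 and Otx2 were lost in some fits without 1 array (adjusted p up to 0.0647 and 0.135). Arid3b itself fell by 1.19 ± 0.29 on the log2 scale (SE) with its brightest probe (limma adjusted p = 0.0265), a call lost without any one of the null replicates 1, 2 and 3 (0.0861, 0.0838 and 0.0690) and with no filter on dim probes (0.0599), and by 1.37 (0.0224) and 2.33 (7.59e-04) with its other 2 probes in the fit over probes. Whether any of these probes lies in the deleted stretch is not known here.

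Values below are log2 of the processed signal relative to the 75th percentile of the same array, so that a difference of 1 is 2-fold. The brightness of a probe depends on its sequence, and levels are compared only between arrays for the same probe. All differences are null minus wild type, with limma's standard error (SE) and p-values adjusted over all 14906 genes tested, and a gene is called at an adjusted p under 0.05. Of these genes 23.5% were called, 12.3% higher and 11.2% lower in the null heads, and 42.4% had 3 null values that did not overlap the 3 wild type values. Among the 9 tested of the genes described, Car9, Car12 and Car11 were called higher and none was called lower by limma. A carbonic anhydrase outside them, Car15, was called lower, at -1.33 (limma adjusted p = 0.0123), and is given below. At an unadjusted p under 0.05, 4 of the 9 were higher and 0 lower, where 37.6% of all genes passed, 18.6% higher and 19% lower. Values did not overlap for 4 of the 9, the same 3 and Car10. The median difference of the 9 was 0.32, the value of Car3, which was not called, against -0.04 for all genes tested. Of the 9, 7 lay above 0, Car2 and Car4 by only 0.05, where 6972 of all 14906 genes did. These measurements are of whole heads, in which fewer cells of a type and less RNA per cell cannot be told apart.

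**Figure D1:**
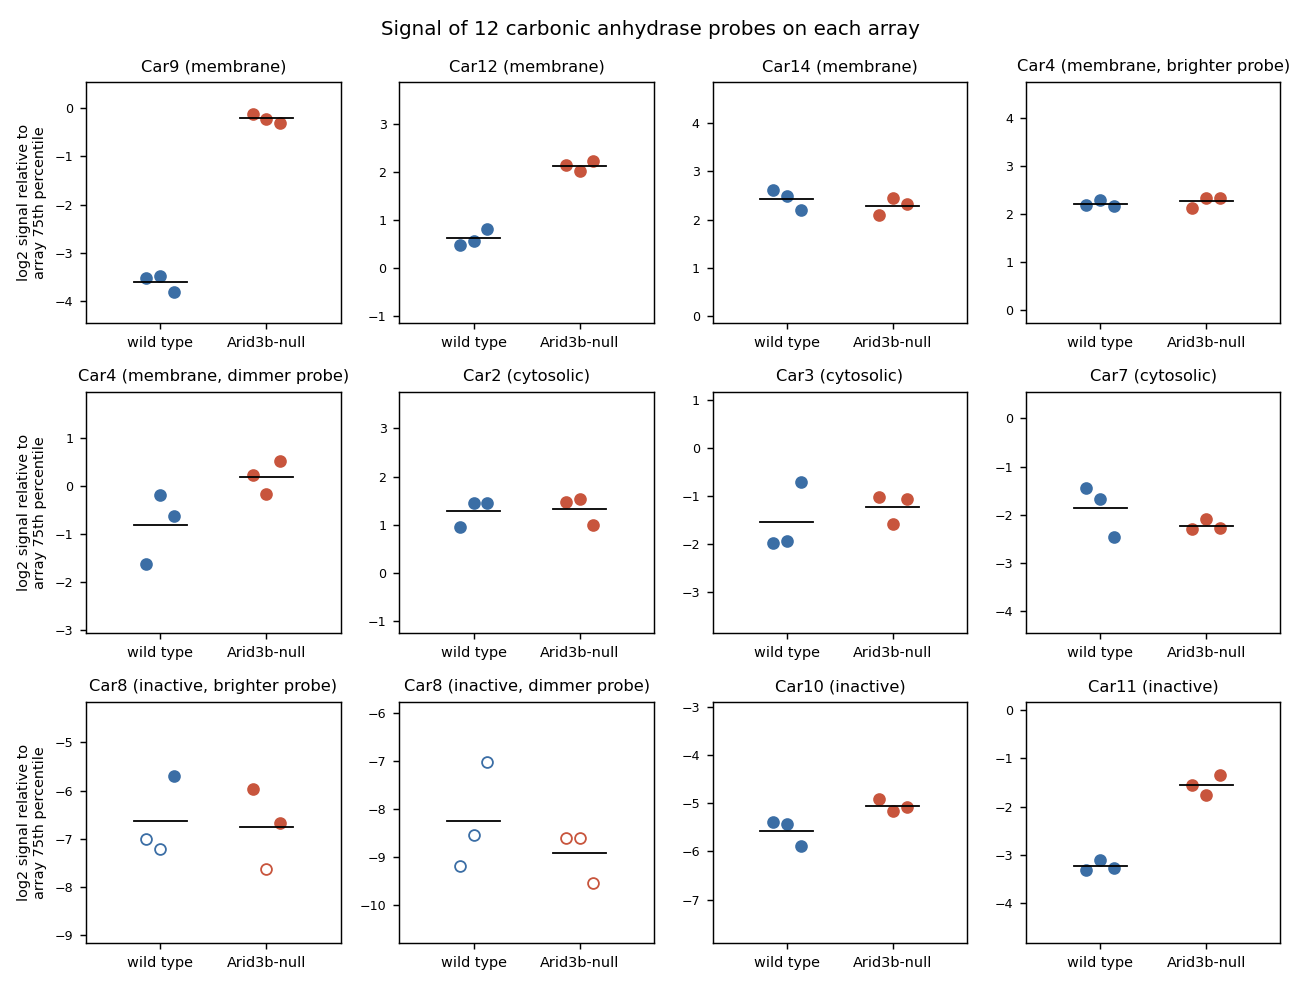
Level of the 12 probes of the 10 carbonic anhydrase genes on each array, as log2 signal relative to the 75th percentile of the array (vertical axis, every panel spanning the same number of log2 units), for 3 wild type (blue) and 3 Arid3b-null (red) arrays. Horizontal bars are group means and open circles are spots not well above background. Car9, Car12 and Car11 separate widely by genotype, while Car2, Car3, Car7, Car14 and the brighter Car4 probe overlap.

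Car9 rose most. Its level was -3.53, -3.48 and -3.81 in wild type replicates 1 to 3 and -0.11, -0.22 and -0.30 in null replicates 1 to 3. The groups did not overlap, and the gap between them was many times the spread within either. The difference was 3.40 ± 0.15 (SE; 95% interval 3.05 to 3.74; adjusted p = 1.81e-04), 10.5-fold, and was 3.42, 3.27 and 3.51 within slides 1, 2 and 3. Of 14906 genes, Car9 ranked 9th by size of rise. In processed signal the wild type arrays gave 59.0, 63.9 and 47.0 and the null arrays 641, 539 and 794, and the spot was well above background on all 6 arrays. The lowest signal well above background was between 5.16 and 9.51 per array, so the wild type level was dim but measured. For so dim a spot the fold depended on background handling: normexp background correction with an offset gave 2.43, or 5.39-fold, still called.

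Car12, the other paralogue known to respond to low oxygen, also rose. Its level was 0.49, 0.57 and 0.82 in wild type and 2.15, 2.01 and 2.23 in null heads, with no overlap and a gap wider than the spread within either group. The difference was 1.50 ± 0.15 (SE; 95% interval 1.16 to 1.85; adjusted p = 0.00149), 2.84-fold, with 1.66, 1.45 and 1.41 within slides 1, 2 and 3. In processed signal, wild type arrays gave 956, 1058 and 1167 and null arrays 3077, 2528 and 4573. Unlike Car9, the bright Car12 spot gave nearly the same difference under normexp, 1.49. Only 5.17% of all genes tested were called higher by at least 2-fold, a class that held Car9, Car12 and Car11. Car12 ranked 291st by size of rise and Car11 207th.

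The log2 difference between Car9 and Car12 within an array does not depend on how arrays are scaled. It was -4.02, -4.05 and -4.63 in wild type and -2.26, -2.23 and -2.53 in null heads, a change of 1.89 that measures how much more Car9 moved than Car12. The 2 sets of values did not overlap, and the exact two-sided permutation test gave p = 0.10, the smallest that 3 against 3 arrays allow. Under normexp the change was 0.94, again without overlap.

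Car14 and Car4, the other membrane enzymes of the set described, did not pass the test. Membrane-anchored Car15, outside the set, was called lower and is given below. Car14 was 2.61, 2.49 and 2.20 in wild type and 2.09, 2.44 and 2.32 in null heads, which overlap, with a difference of -0.14 ± 0.17 (SE; 95% interval -0.54 to 0.25; adjusted p = 0.571). The interval leaves out a rise of the size seen in Car12. For Car4 the brighter probe gave 2.19, 2.29 and 2.17 in wild type and 2.13, 2.34 and 2.33 in null heads, a difference of 0.05 ± 0.13 (SE; 95% interval -0.26 to 0.36; adjusted p = 0.809). The dimmer Car4 probe gave -1.62, -0.20 and -0.62 against 0.22, -0.17 and 0.51, and in the fit over probes its difference was 1.0 ± 0.37 (SE; adjusted p = 0.109). These values did not overlap, though the highest wild type and lowest null value, -0.20 and -0.17, nearly met. The 2 Car4 probes therefore disagreed in size, their mean gave 0.52 (adjusted p = 0.123), and the wild type arrays of the dimmer probe spanned more than 1 log2 unit.

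None of the cytosolic enzymes passed the test either. Car2, the abundant cytosolic form of red cells and glia, was 0.96, 1.45 and 1.46 in wild type and 1.46, 1.54 and 1.0 in null heads, a difference of 0.05 ± 0.21 (SE; 95% interval -0.46 to 0.55; adjusted p = 0.900). Car3, a form of low activity found in muscle and fat, was -1.97, -1.92 and -0.71 against -1.01, -1.58 and -1.07, a difference of 0.32 ± 0.36 (SE; 95% interval -0.53 to 1.16; adjusted p = 0.564). Wild type replicate 3 stood apart from the other wild type arrays for Car3, and without it the difference was 0.73 and called (adjusted p = 0.0326). Car7, a cytosolic form of brain, was -1.44, -1.68 and -2.46 against -2.30, -2.09 and -2.28, a difference of -0.36 ± 0.26 (SE; 95% interval -0.99 to 0.26; adjusted p = 0.362). Here the same array was the lowest of all 6, and without it Car7 was called lower, at -0.66 (adjusted p = 0.0168).

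Of the 3 inactive paralogues Car11 rose, Car10 did not pass the test and Car8 could not be tested. The Car11 level was -3.31, -3.10 and -3.27 in wild type and -1.54, -1.77 and -1.35 in null heads, again with a gap wider than the spread within either group. The difference was 1.67 ± 0.15 (SE; 95% interval 1.31 to 2.04; adjusted p = 0.00125), 3.19-fold, with 1.76, 1.34 and 1.92 within slides 1, 2 and 3. In processed signal it was 68.8, 83.1 and 68.3 in wild type and 238, 184 and 383 in null heads, and normexp gave 1.16. The intervals of Car11 and Car12 overlapped.

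Car10 was dim and fell short of the threshold. Its processed signal was 11.1 to 16.6 in wild type and 17.4 to 29.0 in null heads, and its level was -5.39, -5.43 and -5.90 against -4.90, -5.17 and -5.08. The groups did not overlap, and the difference was 0.52 ± 0.18 (SE; 95% interval 0.10 to 0.94; adjusted p = 0.0772). It was called with quantile normalization (0.65; 0.0287) and in the authors' deposited value table (0.68; 0.0321), but normexp gave -0.01 (0.958). Car8 could not be tested. Its brighter probe gave signals of 5.32, 4.80 and 12.7 in wild type and 11.1, 3.18 and 9.61 in null heads and was well above background on 1 wild type and 2 null arrays, and its other probe, at 1.17 to 5.06, was not well above background on any array.

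**Figure D2:**
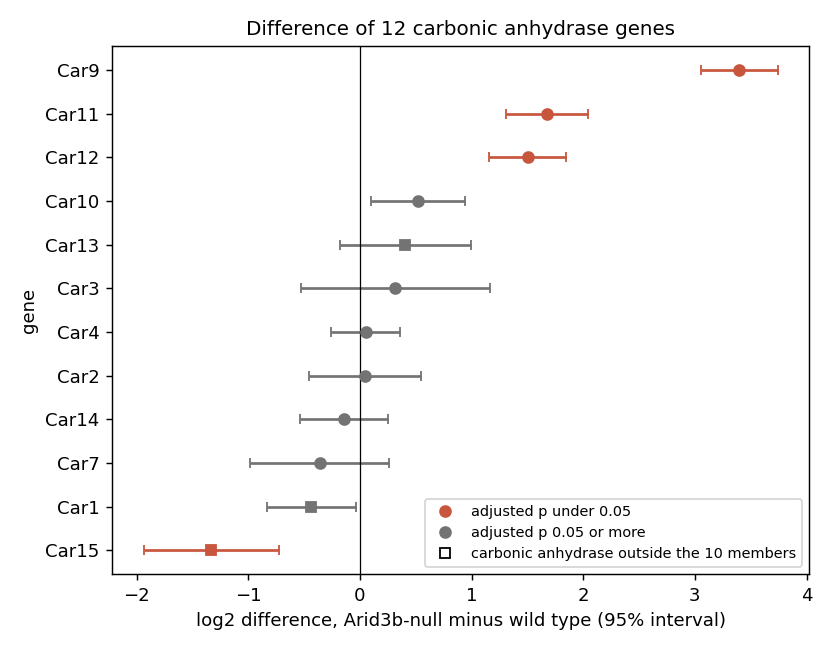
Log2 difference, null minus wild type, of the 12 carbonic anhydrase genes tested (horizontal axis; points with limma 95% intervals), with squares for the 3 outside the 10 described. Car9, Car11 and Car12 lie to the right at 3.40, 1.67 and 1.50, Car15 to the left at -1.33, and the other intervals are grey because the adjusted p was 0.05 or more.

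6 further carbonic anhydrase genes were on the array, and 3 of them could be tested. Car15, a membrane-anchored enzyme, fell by 1.33 ± 0.26 on the log2 scale (SE; adjusted p = 0.0123), 2.52-fold, from -1.24, -1.36 and -0.70 to -2.03, -2.81 and -2.45, with no overlap. Without null replicate 3 its adjusted p was 0.0511, and with arrays weighted by their quality it fell by 0.84. Cytosolic Car1 differed by -0.43 ± 0.17 (adjusted p = 0.105), with a call without wild type replicate 3 (-0.54; 0.0442), and cytosolic Car13 by 0.41 ± 0.25 (0.280). Mitochondrial Car5a and Car5b and the secreted Car6 were well above background on at most 2 arrays of a group and were not tested. Car13, Car1, Car3 and Car2 follow one another on the chromosome with 0 other protein-coding genes between them, and none of the 4 passed the test. The 3 that rose, Car9, Car11 and Car12, lie on chromosomes 4, 7 and 9. Whether any of these 3 lies on the chromosome of Arid3b, and how far from the null allele, was not examined.

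**Figure D3:**
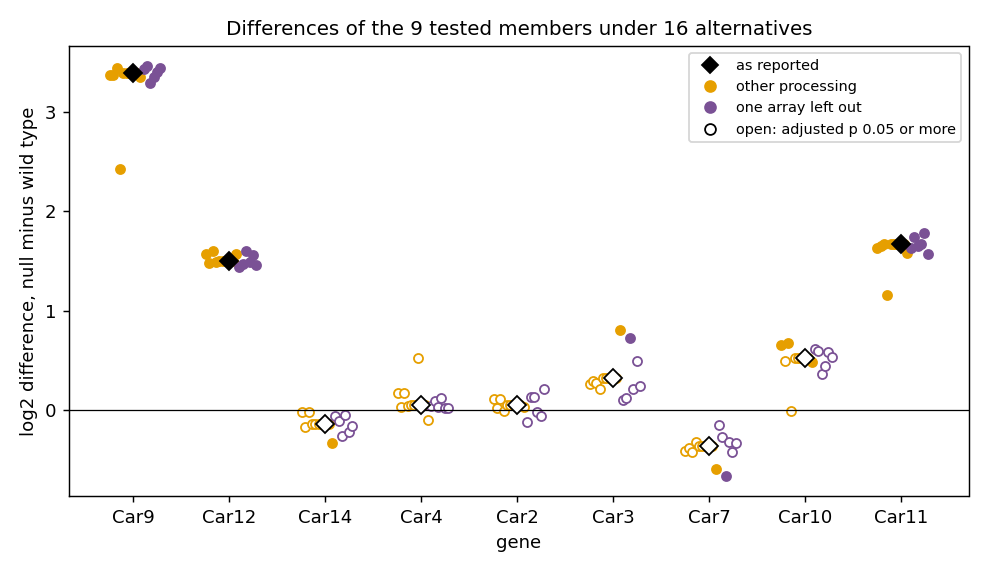
Log2 difference, null minus wild type (vertical axis), of the 9 tested genes as reported (diamonds), under other processing (orange) and with 1 array left out (purple); open symbols have an adjusted p of 0.05 or more. Car9 spans 2.43 to 3.46, Car12 1.44 to 1.60 and Car11 1.16 to 1.78, with filled symbols throughout, and Car2 and Car4 have open symbols throughout, at -0.12 to 0.21 and -0.10 to 0.52.

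The calls of Car9, Car12 and Car11 held under all 16 alternatives run, including each array left out. With slide as a block, 24.7% of all genes were called, and the adjusted p was 0.00251 for Car9, 0.00519 for Car12 and 0.00599 for Car11.

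The genes whose levels followed Car9 and Car12 most closely over the 6 arrays were read from 14393 tested genes. For Car9 they were Hdac5, a class IIa histone deacetylase (Pearson r = 0.9995, difference 1.0), Ndufa4l2, a mitochondrial protein known as a target of hypoxia-inducible factor (0.9992, 4.09), and G6pc3, a glucose-6-phosphatase (0.9989, 0.47). The limma call of G6pc3 (adjusted p = 0.0288) was lost without any one array other than wild type replicate 3 (0.0702 to 0.119). Closest to Car12 were Avpr1a, a vasopressin receptor (r = 0.9989, difference 2.76, but 0.09 under normexp), Espn, an actin-bundling protein (0.9987, 2.30), and Scube3, a secreted signalling cofactor (0.9987, 1.35). Avpr1a was not well above background on all 6 arrays and passed the filter through 1 group only. These correlations are descriptions over 2 groups of 3 arrays, in which any gene that differs between the groups scores high: 10.6% of genes exceeded 0.9 with Car9 and 10.5% with Car12.

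Other known targets of hypoxia-inducible factor were read beside Car9 and Car12. In a list of 25 such genes that holds neither of them, 19 of 24 tested were called higher and 0 lower by limma (21 and 0 at an unadjusted p under 0.05), with a median difference of 1.75 and, as the largest, Ndufa4l2 at 4.09 ± 0.14 (SE; 17.1-fold; adjusted p = 7.37e-05). Over all genes tested, 12.3% were called higher and 11.2% lower. The 5 tested targets not called were Hk2 at 1.05 (limma adjusted p = 0.0597), Higd1a at 0.43 (0.115), Ldha at 0.28 (0.269), Eno1 at 0.23 (0.308) and Pfkfb4 at -0.13 (0.561). This list was chosen with earlier results of these data known, so its count is a description only. Car9 lay in the upper part of the range of the listed targets, and Car12 and Car11 below their median.

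Extracellular carbonic anhydrases supply or remove the protons and bicarbonate that membrane transporters carry. Of 11 bicarbonate transporters tested of 14 listed, 3 were called higher and 2 lower, with a median of -0.14, where 12.3% of all genes were called higher and 11.2% lower. Slc4a5, a sodium bicarbonate cotransporter, rose by 1.29 ± 0.17 (SE; 2.44-fold; adjusted p = 0.00345), with 1.40, 1.33 and 1.13 within slides 1, 2 and 3. Slc4a7, of the same class, rose by 0.86 ± 0.19 (adjusted p = 0.0178), and its other probe gave 0.52 (0.193). The call of Slc4a7 was lost without null replicate 1 (0.0737) or 2 (0.0657). The exchanger Slc26a6 fell by 0.59 ± 0.13 (adjusted p = 0.0199), while its other 2 probes gave -0.33 and -0.43 and were not called. Slc26a9, a chloride transporter, was called at 0.58 ± 0.13 (adjusted p = 0.0203) but gave 0.02 under normexp, and Slc4a8 fell by 1.05 ± 0.29 (0.0382). The calls of Slc26a9 (adjusted p = 0.0538 to 0.0786) and Slc4a8 (0.0518 to 0.119) were lost without any one array other than wild type replicate 3, and that of Slc26a6 (0.0531 to 0.0860) without wild type replicate 1 or 2 or null replicate 1 or 3.

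Of 11 proton and lactate transport genes tested of 14 listed, 2 were called higher and 0 lower by limma (2 and 1 at an unadjusted p under 0.05), with a median of -0.07. Over all genes tested, 12.3% were called higher and 11.2% lower. The 2 called were Slc16a3, the lactate exporter of glycolytic cells, at 1.31 ± 0.16 (SE, 2.48-fold, adjusted p = 0.00284), with 1.45, 1.04 and 1.45 within slides 1, 2 and 3 and 1.29 with its other probe, and Bsg, the chaperone that brings lactate transporters to the membrane, at 1.16 ± 0.24 (2.23-fold, 0.0151). The Bsg call was lost without null replicate 1 (0.0613) or 3 (0.0577). The lactate transporter Slc16a1 differed by -0.07 (0.858), and of the alternatives run only array weights called it lower (-0.57, 0.0315). For Slc9a8, a sodium-proton exchanger chosen after its values were seen, the brightest probe gave -0.20 (0.331) and the other probe 1.88 ± 0.24 (0.00443 in the fit over probes).

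The families that hold the binding partners of the inactive paralogues were also read. They are IP3 receptors, the calcium channels of the endoplasmic reticulum, and neurexins, adhesion proteins of synapses. Only Itpr1 is named above as a partner of Car8, and Car8 itself could not be tested. Of the 6 genes of these families, 4 were called higher and 0 lower by limma (4 and 0 at an unadjusted p under 0.05), with a median of 1.07. The shares over all genes tested were 12.3% higher and 11.2% lower. Itpr1, the receptor that Car8 binds, rose by 0.91 ± 0.15 (SE; 1.88-fold; adjusted p = 0.00767), Itpr2 by 1.34 ± 0.19 (0.00433) and Itpr3 by 1.24 ± 0.21 (0.00787). Nrxn3 rose by 2.10 ± 0.15 (4.27-fold; adjusted p = 7.69e-04), with 1.62 from another probe, but was dim, and normexp gave 0.63. Nrxn2 differed by -0.12 (0.635). Receptor phosphatases with a carbonic anhydrase domain were Ptprz1, of neural progenitors and glia, which fell by 1.12 ± 0.15 (2.17-fold; adjusted p = 0.00394; -1.25 with its other probe), and Ptprg, at 0.31 (0.295).

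**Figure D4:**
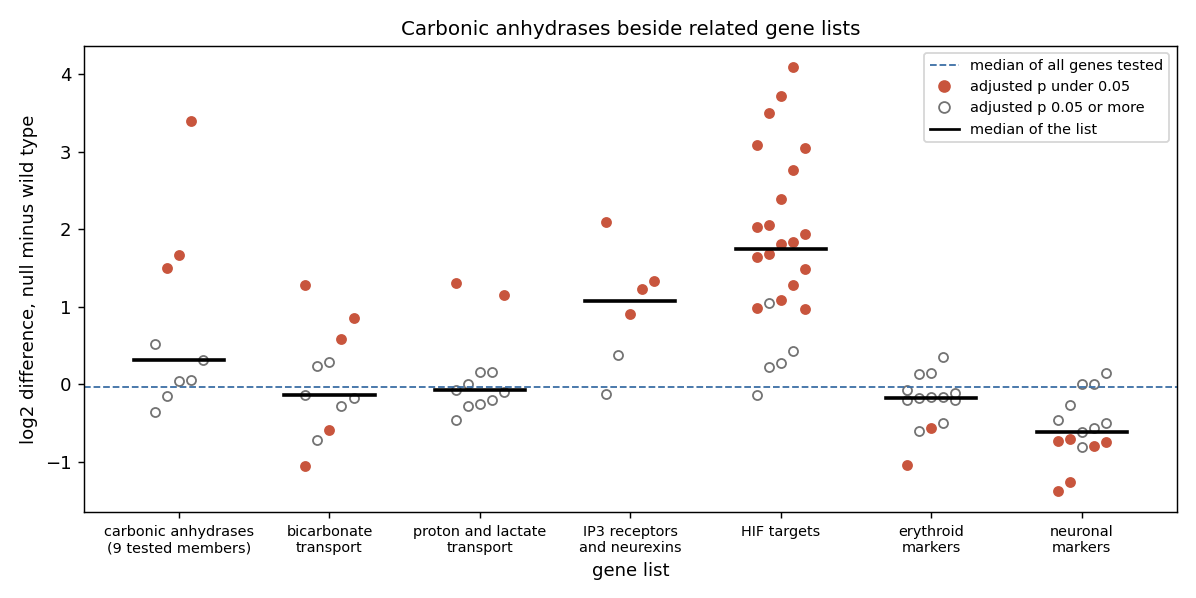
Log2 difference, null minus wild type (vertical axis), of each tested gene in 7 lists, filled where called, with the list median (black bar) and the median of all genes tested, -0.04 (dashed). Targets of hypoxia-inducible factor and the IP3 receptors and neurexins have medians of 1.75 and 1.07, the 9 carbonic anhydrases 0.32, and neuronal markers -0.61.

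Carbonic anhydrases are known from red cells, muscle and neurons, and markers of these cells were read beside them. The counts called in each marker list stand beside shares over all genes tested of 12.3% called higher and 11.2% lower. Of 14 erythroid markers 0 were called higher and 2 lower, Klf1 at -1.04 (0.0216) and Tfrc at -0.56 (0.0383), with a median of -0.17. The call of Klf1 was lost without null replicate 1 (0.0804) or 3 (0.0827), and that of Tfrc without any one array other than wild type replicate 3 (0.0636 to 0.148). The other 2 Tfrc probes gave -0.22 (0.475) and -0.51 (0.0649) in the fit over probes. The summed level of the 14 erythroid markers, as a multiple of the 75th percentile, was 640 to 866 in wild type and 493 to 1013 in null heads, which overlap. Of 15 neuronal markers 0 were called higher and 6 lower by limma (0 and 9 at an unadjusted p under 0.05), among them Elavl3 at -1.27 ± 0.16 (adjusted p = 0.00336) and Nhlh2 at -1.38 ± 0.21 (0.00575), with summed levels of 22.3 to 30.1 in wild type and 17.4 to 22.3 in null heads, barely apart. Dcx, Elavl4 and Map2 were also among the 6. Their other probes were not called in the fit over probes: Dcx at -0.73 (0.0537) and -0.49 (0.324), Elavl4 at -0.63 (0.108) and Map2 at -0.53 (0.232). The other 9 neuronal markers were not called, among them Syt1 at 0.15 (0.578), Gap43 at 0.0042 (0.989) and Snap25 at 0.0047 (0.991). Of 11 muscle markers tested of 15, 0 were called in either direction by limma (2 higher and 3 lower at an unadjusted p under 0.05, which 37.6% of all genes passed), and Myog and Myf5 were not well above background on any array. Summed muscle levels were 1.54, 5.68 and 2.45 in wild type replicates 1 to 3 and 2.26 to 2.44 in null heads, so replicate 2 alone made the wild type range wide. Of 12 endothelial markers 1, Sox17 at 1.23 (0.00239), was higher and 0 lower (3 and 1 unadjusted), with sums of 14.9 to 19.9 and 16.2 to 17.5. The other Sox17 probe gave 0.93 (0.0139 in the fit over probes). For Kdr the brightest probe gave -0.22 (0.494), but the other Kdr probe was called higher at 0.76 (0.0217 in the fit over probes). Of 7 notochord and floor plate markers tested 1 was higher (T at 1.54, adjusted p = 0.0111) and 2 lower (Foxj1 at -1.16 and 0.0205, Shh at -0.65 and 0.0312). Their sums were 3.40, 8.70 and 3.23 in wild type replicates 1 to 3 and 7.04 to 8.04 in null heads. T was well above background on 2 wild type and 3 null arrays and so passed the filter only through the null group, and it gave 0.22 under normexp. The calls of Foxj1 and Shh were lost in some fits without 1 array, with adjusted p up to 0.0680 and 0.114. The part of cell composition in the differences of the carbonic anhydrases was not tested.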

How the data were processed

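RNA was amplified and labelled with Cy3, per the labels' protocols, and scanned images were quantified by Feature Extraction 10.7.3.1 (Agilent), per the file headers. In the deposited scanner files each spot has an intensity after background subtraction and detrending (processed signal), raw median intensities and flags, as the headers name them. The authors also deposited a table of log2 values. Of its 24181 rows 24158 match probes, its column medians are 6.76 to 6.77 and each column correlates with the log2 signal of its array at 0.999 or more, but its centring and scaling are not given in the sources used here. The design file names build mm9 and no probe coordinates were used. Of 39429 probes, 26424 were named with 1 symbol, 0 with several and 13005 with none, through RefSeq accessions. Promoter sequences are from RefSeq, GRCm38.p6, in the strand of the gene.

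Values are log2 processed signal minus the log2 75th percentile of non-control spots. Outlier spots were dropped, and repeated spots of the same probe were averaged. A probe was kept (26288) if it was measured on at least 5 arrays and, in 1 group or both, was well above background on all 3, and the brightest stood for each of 14906 genes. Groups were compared by limma 3.58.1 under R 4.3.3, with eBayes after lmFit and p-values adjusted by Benjamini-Hochberg. The 75th percentile signal was 626 to 977 and the number of arrays limits the precision. The steps were tested on simulated data. Named genes are the members, the other carbonic anhydrases, Arid3b, up to 4 genes per list with the smallest p and the 3 genes most correlated with Car9 and with Car12. Those outside this rule (Slc4a8, Slc9a8, Slc16a1, Nrxn2, Otx2, Elavl4, Kdr, Syt1, Gap43, Snap25, Myog, Myf5, Hk2, Higd1a, Ldha, Eno1 and Pfkfb4) were chosen after their values were seen. The members and lists were chosen with earlier results of these data known. The alternatives tried were the deposited table, quantile normalization, median centring, normexp on median signals with an offset of 50, other probe filters, the mean of probes, an intensity trend, array weights, slide as a block and each array left out. Same-numbered arrays share a slide, and their deviations from the group means correlated at -0.20, 0.15 and 0.42 over 14898 genes, so they were not taken as pairs.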

Additional observations from a re-analysis of the deposited data

How the results depend on the processing

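Car9, Car12 and Car11 stayed called higher under all 16 alternatives, at 2.43 to 3.46, 1.44 to 1.60 and 1.16 to 1.78. Against 3506 genes called as reported, the fit with no filter on dim probes called 2270 of 20021 tested, the fit with array weights (0.192 to 5.44 per array, lowest for wild type replicate 3) called 9273, and fits with 1 array left out called 1516 to 5199: 5199 without wild type replicate 3 and 1516 without null replicate 1. Array weights called 5 members higher (Car3 and Car10 added) and 2 lower (Car7 at -0.60 and Car14 at -0.34). Leaving out arrays gave 3 to 4 members higher, with Car3 added, and 0 to 1 lower, Car7, both without wild type replicate 3. Differences near 0 changed sign: normexp gave -0.014 for Car10 and -0.011 for Car2, array weights gave -0.10 for Car4 and 0.069 for Nrxn2, leaving out 1 array gave -0.12 to 0.21 for Car2 and -0.23 to 0.029 for Nrxn2, above 0 without wild type replicate 3, and -0.27 to 0.13 for Slc16a1, and the mean of probes gave 0.84 for Slc9a8. With slide, equal to the replicate number, as a block, 3689 genes were called against 3506, the same 3 members among them, and of the other genes named with a call only Tfrc lost it (0.0547). The block also called 20 targets of hypoxia-inducible factor and 2 endothelial markers higher, and 7 neuronal markers, 4 head identity genes and 1 muscle marker (Myl3 at -1.36, 0.0494, named after its value was seen) lower. With no filter on dim probes the calls of Arid3b (0.0599), Klf1 (0.0508), Tfrc (0.0793), Slc4a8 (0.080), Shh (0.0671), Otx2 (0.0823) and G6pc3 (0.0614) were lost. Not every array correlated best with its own number in the pairing check. The dim spots of Car8, Car10, Car9 in wild type, Nrxn3, Slc26a9 and Avpr1a limit what can be said of their folds, and normexp gave smaller differences for each of them except Car8, which was not tested.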

Other observations

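Wild type replicate 3 had the highest level of the 6 arrays for Car3, Car15 and the brightest Arid3b probe and the lowest for Car7, Car9, Car10 and Car13, and Car3, Car7 and Car1 were called in the fit without it. For Ptprg, the phosphatase with a carbonic anhydrase domain that was not called, the 2 other probes gave 0.62 (adjusted p = 0.158) and 0.76 (0.0514) in the limma fit over probes, and the mean of its probes was called at 0.56 (0.0323).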
